A study of Homo sapiens with 6 samples.

Results

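The MCM helicase family was taken as 10 genes of the 57905 in the deposited table, chosen by their gene symbols: MCM2 to MCM10 and MCMBP. The family was chosen by the lower level of MCM2 after INO80 knockdown in these same libraries, so the MCM2 values are given as a description with no test, and the question is whether the other 9 members shared its change. RNA-seq was performed on HK-2, an immortalized line of human proximal tubular cells, which reabsorb solutes in the kidney. In 3 libraries the cells, labelled WT, had received a non-targeting control siRNA pool, and in 3 libraries, labelled as knockdown, a pool of siRNAs against INO80, the ATPase of a chromatin remodelling complex. All cells were transfected with the lipid reagent RNAiMAX and harvested at 48 h, so the controls share the transfection but not the targeting siRNA. A single line and a single siRNA pool were used, which limits the model to transient depletion in these cells. Poly(A) RNA was sequenced, and 16829273 to 20311588 reads per control library and 20678008 to 23784599 per INO80 siRNA library were counted on genes.

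MCM2 to MCM7 are related ATPases that form a ring of 6 different subunits. The ring is loaded on DNA at replication origins by the origin recognition complex with CDC6 and CDT1, and with CDC45 and the GINS complex it becomes the helicase that unwinds DNA at the fork. MCM8 and MCM9 act as a separate pair in recombination repair, MCM10 takes part in helicase activation, and MCMBP binds the other MCM proteins. The ring genes are well known targets of E2F transcription factors in proliferating cells, with transcripts that accumulate from late G1 into S phase. MCM2 also carries a histone-binding tail that handles H3 and H4 at the fork.

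INO80 itself was measured at 46.3, 49.3 and 54.0 counts per 1000000 counted reads (CPM) in the control libraries and at 13.8, 12.0 and 14.2 CPM in the INO80 siRNA libraries. The mean fell from 49.9 ± 3.89 to 13.3 ± 1.12 CPM (SD, n = 3), a log2 fold change of -1.90 (SE 0.0956, adjusted p = 0.000161, edgeR quasi-likelihood test), so the target gene followed the labels. Here and below a fold change is INO80 siRNA over control siRNA, CPM are scaled by TMM library factors, and Benjamini-Hochberg adjustment covered the 15343 genes tested. A gene was called with an adjusted p under 0.05. The median log2 fold change of all genes tested was 0.007. The libraries numbered 1 stood apart from the others in both groups, and same-numbered libraries deviated together across genes, so replicate number entered a second fit, called the block below. Of the 7 proximal tubule markers looked for, 2 passed the filter on low counts, GGT1 and SLC5A2, while LRP2, which encodes megalin, had 1 count in all 6 libraries together. Most of the defining markers of the labelled cell type were thus near 0. Of 8 markers of other cells looked for, 7 were found. PTPRC, NPHS1, UMOD and AQP2, markers of leukocytes, podocytes, thick ascending limb and collecting duct, were at 0 counts in every library. VWF and COL3A1 had at most 1 count in a library, while CD68 had 8 to 18 counts and passed the filter. Of 5 epithelial markers, 4 passed the filter, EPCAM, KRT8, KRT18 and KRT19, while CDH1 had at most 10 counts in a library. The labels do not say whether the 3 libraries of a group came from separate cultures, so p-values measure the spread between these libraries, which may be technical.

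The promoter table used here, drawn from RefSeq (GRCh38.p14), gave 11 windows of 300 bases, 250 before and 50 after the transcription start, for 8 of the 10 members. MCM4 and MCM5 were not analysed here in this respect. The windows of MCM2 and of 3 other ring genes are shown because all 4 hold an E2F-type word there. The level of MCM2 differed between the siRNA groups far more than that of the other 3. Whether these words bear on the levels was not tested. Capitals mark 4 E2F-type words, searched on either strand with overlapping matches joined. The words searched were TTCGCGC with its 3 relatives, which are TTGGCGC first, then likewise TTCCCGC, and finally also TTGCCGC. The MCM2 window is chr3:127598161-127598460 on the plus strand, the MCM3 window chr6:52284693-52284992 on the minus strand, the MCM6 window chr2:135876394-135876693 on the minus strand and the MCM7 window, 1 of 3 for this gene, chr7:100101348-100101647 on the minus strand.
MCM2: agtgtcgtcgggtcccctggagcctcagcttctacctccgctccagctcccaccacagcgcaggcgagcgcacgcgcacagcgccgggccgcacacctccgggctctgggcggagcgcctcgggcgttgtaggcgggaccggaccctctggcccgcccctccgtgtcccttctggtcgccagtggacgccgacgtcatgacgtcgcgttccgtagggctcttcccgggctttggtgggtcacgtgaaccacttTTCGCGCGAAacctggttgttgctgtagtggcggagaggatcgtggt
MCM3: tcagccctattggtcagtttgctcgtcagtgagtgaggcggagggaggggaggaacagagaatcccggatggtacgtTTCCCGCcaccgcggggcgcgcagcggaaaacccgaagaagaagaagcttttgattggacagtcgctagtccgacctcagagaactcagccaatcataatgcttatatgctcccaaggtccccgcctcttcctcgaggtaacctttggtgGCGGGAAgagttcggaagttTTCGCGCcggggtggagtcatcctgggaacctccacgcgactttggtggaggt
MCM6: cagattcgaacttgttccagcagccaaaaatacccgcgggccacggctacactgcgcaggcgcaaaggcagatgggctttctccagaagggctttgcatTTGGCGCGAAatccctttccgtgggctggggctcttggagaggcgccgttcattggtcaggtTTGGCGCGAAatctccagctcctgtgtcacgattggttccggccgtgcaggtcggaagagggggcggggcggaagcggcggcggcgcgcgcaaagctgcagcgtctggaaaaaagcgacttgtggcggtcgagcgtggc
MCM7: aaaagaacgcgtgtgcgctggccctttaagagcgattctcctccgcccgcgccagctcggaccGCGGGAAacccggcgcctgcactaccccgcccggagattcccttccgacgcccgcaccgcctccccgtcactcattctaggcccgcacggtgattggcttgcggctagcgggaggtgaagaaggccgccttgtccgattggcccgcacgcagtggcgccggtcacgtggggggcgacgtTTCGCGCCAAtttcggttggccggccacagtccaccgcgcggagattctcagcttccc
In MCM2 the word and its reverse complement overlap in TTCGCGCGAA, from base 4 to base 13 counted from the start as base 1. MCM7 holds TTCGCGCCAA across its start, and MCM6 holds TTGGCGCGAA 2 times upstream, beginning 151 and 89 bases before the start. MCM3 holds 3 matches, beginning 173, 23 and 3 bases before the start. An E2F-type word lay in 7 of the 11 member windows (63.6%) and in at least 1 window of 6 of the 8 members, namely the 4 shown with MCM8 and MCMBP. MCM9 and MCM10 had none in the window. Another MCM7 window, chr7:100100480-100100779, and another MCMBP window, chr10:119873532-119873831, also had none. Counted by window as in the 63.6%, the same words lay in 13.0% of all 35116 RefSeq windows of this length and in 19.0% of the 14711 windows whose gene was tested. Of the other words searched on both strands, MCM2 held GGGCGG 2 times and CACGTG 1 time and had no CCAAT. MCM3 and this MCM7 window each held CCAAT 3 times, and MCM6 held it 2 times. This MCM7 window also held GGGCGG 2 times and CACGTG 1 time, the same counts as in MCM2. MCM6 held GGGCGG 1 time and no CACGTG, and MCM3 held neither word. GGGCGG lay in 45.0% of all windows, CACGTG in 7.26% of them and CCAAT in 34.6%. A match describes the letters only and does not say which factor binds there.

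MCM2, whose product also binds H3 and H4, was measured at 210, 279 and 265 CPM in the control libraries and at 95.4, 127 and 122 CPM in the INO80 siRNA libraries. All 3 INO80 siRNA libraries lay below all 3 controls. These values rest on 3449, 5706 and 5124 reads in the controls and on 1917, 3063 and 2965 reads after INO80 siRNA. The mean was 252 ± 36.4 CPM in controls and 115 ± 17.0 CPM after INO80 siRNA (SD, n = 3), the second being 0.457 of the first. The fitted log2 fold change was -1.13 (SE 0.133, 95% interval -1.43 to -0.83), and 43 of the 15343 genes tested, 0.28%, had a lower one. MCM2 was chosen by its lower level in this same contrast, so its interval is a description and its nominal 95% need not hold. Between same-numbered libraries the log2 ratio was -1.14, -1.14 and -1.11, so the size of the difference varied less between pairs than the level did between libraries of a group. In these bulk samples a lower level in every cell and a loss of the transcript in some of the cells, or fewer cells that carry it, cannot be told apart.

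**Figure D1:**
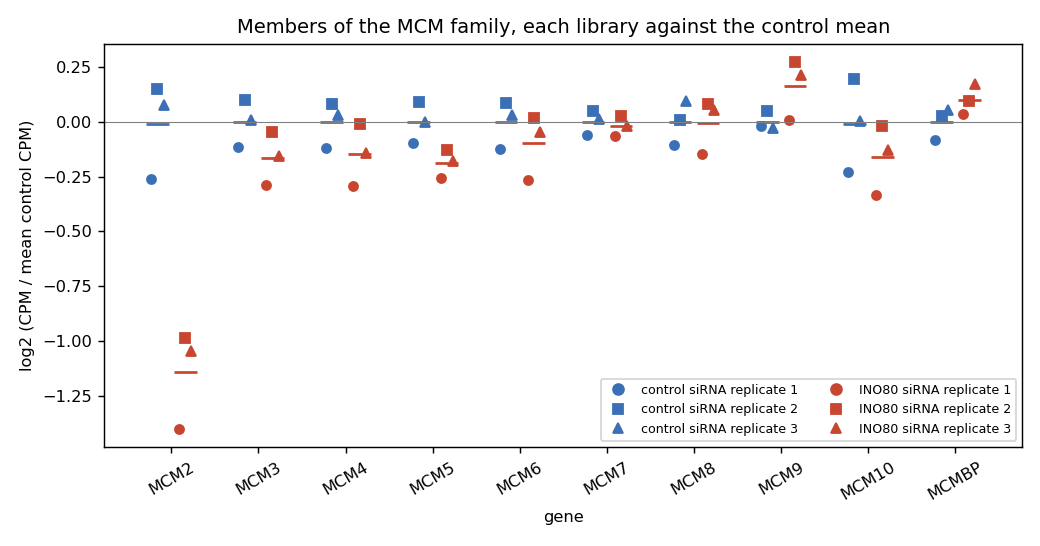
Each point is 1 library, plotted for each MCM family gene as the log2 of its CPM over the mean control CPM, with blue for control siRNA, red for INO80 siRNA, shapes for replicate numbers and a bar at the group mean. MCM2 in the 3 INO80 siRNA libraries lies far below all other points. Of the other 9 genes only MCM5 has groups that do not overlap on this CPM scale.

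None of the other 9 members was called lower or higher by edgeR with the treatment alone, where 1.49% of all genes tested were called lower and 0.261% higher. 1 of the 9, MCM5, had an unadjusted p under 0.05 and was lower, beside 9.2% of all genes lower and 7.18% higher at that limit. DESeq2 called 0 of the 9, and 3.87% lower and 1.06% higher of the 12535 genes to which it gave an adjusted p. In CPM, MCM5 was also the 1 member besides MCM2 whose INO80 siRNA libraries all lay below the controls, against 11.5% of all genes tested. In FPKM, the read count over exonic length and library total, the MCM5 groups overlapped. The lowest MCM5 control was 24.57 FPKM and the highest INO80 siRNA library 25.03 FPKM, so this separation depended on the scaling. No member had all INO80 siRNA libraries above the controls, which 11.3% of all genes tested had. The log2 fold change of the 5 other ring genes had a median of -0.14 and ran from -0.19 to -0.02. With the replicate block, 3 of the 9 were called lower, MCM3, MCM4 and MCM5, and 1 higher, MCMBP, where 13.4% of all genes were called lower and 11.4% higher. Between same-numbered libraries, 6 of the 9 were lower in 3 of 3 pairs and 2 were higher in 3 of 3. The share of all genes with 1 direction in 3 of 3 pairs was not computed, so the pair directions given below are a description.

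MCM3, a ring subunit, was measured at 186, 216 and 203 CPM in controls and at 165, 195 and 181 CPM after INO80 siRNA. The groups overlapped, although each INO80 siRNA library was below the control of the same number. Its log2 fold change was -0.16 (SE 0.0815, 95% interval -0.35 to 0.03, adjusted p = 0.382, edgeR), and with the replicate block the adjusted p was 0.00139. MCM4, whose product lies between MCM6 and MCM7 in the ring, was measured at 290, 333 and 321 CPM in controls and at 257, 312 and 285 CPM after INO80 siRNA. Its libraries overlapped in the same way, with a lower value in 3 of 3 pairs. The log2 fold change of MCM4 was -0.14 (SE 0.0842, 95% interval -0.34 to 0.05, adjusted p = 0.447, edgeR), and -0.15 with an adjusted p of 0.00228 with the block.

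MCM5, the neighbour of MCM2 in the ring at the gate through which DNA enters, was measured at 185, 211 and 198 CPM in controls and at 166, 181 and 175 CPM after INO80 siRNA. The mean was 198 ± 12.9 in controls and 174 ± 7.56 CPM after INO80 siRNA (SD, n = 3; exact permutation test, two-sided p = 0.1, the smallest that 3 against 3 allows). Its log2 fold change of -0.19 (SE 0.0665, 95% interval -0.34 to -0.04, adjusted p = 0.207, edgeR) passed the threshold with the block, at an adjusted p of 0.000365. The interval of MCM5 with the block ran from -0.26 to -0.11, so the fitted fall was small beside the fitted difference of MCM2.

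MCM6, another ring subunit, was measured at 164, 190 and 183 CPM in controls and at 149, 181 and 173 CPM after INO80 siRNA. The groups overlapped, and the log2 fold change was -0.10 (SE 0.0867, 95% interval -0.29 to 0.10, adjusted p = 0.651, edgeR). MCM6 was lower in 3 of 3 pairs, and its interval with the block was -0.17 to -0.02. MCM7, the most abundant member, was measured at 403, 435 and 424 CPM in controls and at 402, 428 and 415 CPM after INO80 siRNA. The ranges of MCM7 were almost the same in both groups, although it too was lower in 3 of 3 pairs, with log2 ratios of -0.00, -0.02 and -0.03. Its log2 fold change was -0.02 (SE 0.0564, 95% interval -0.15 to 0.11, adjusted p = 0.906, edgeR), and the interval with the block was -0.09 to 0.05. Neither MCM6 nor MCM7 was called with the block (adjusted p = 0.0574 and 0.724, edgeR).

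**Figure D2:**
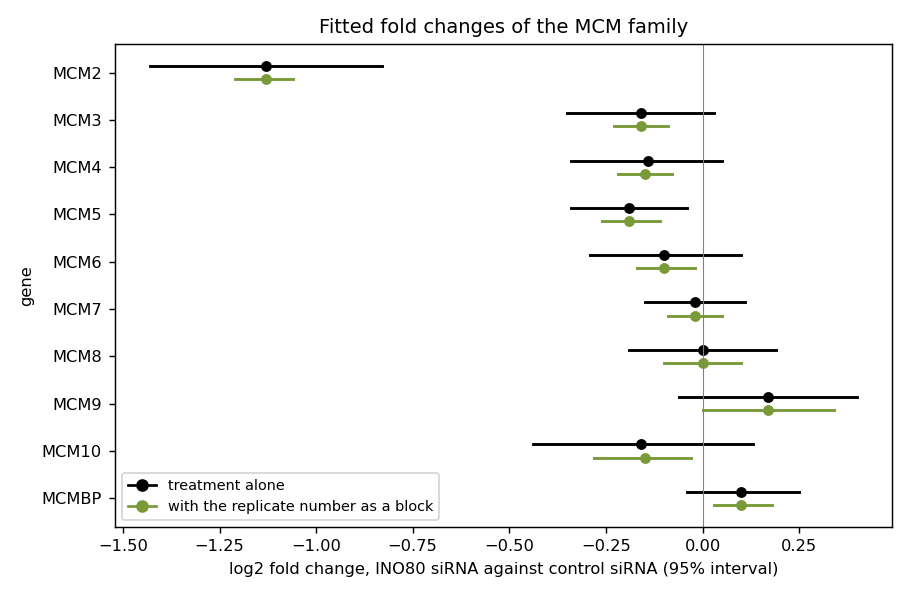
Points are the fitted log2 fold changes, INO80 siRNA against control siRNA, of the 10 MCM family genes with 95% intervals, in black from the treatment alone and in green with replicate number added to the fit as a block. The interval of MCM2 ends at -0.83 or lower on either fit, and the lowest bound of another member is -0.44 for MCM10. MCM2 was chosen by this contrast, so its interval is a description and its distance from the others is not a test.

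Outside the ring, MCM8, which works with MCM9 in recombination repair, was measured at 68.2, 73.9 and 78.3 CPM in controls and at 66.3, 77.8 and 76.2 CPM after INO80 siRNA. The groups overlapped with equal means of 73.4 CPM, and the 95% interval of the log2 fold change was -0.19 to 0.19 (adjusted p = 0.999, edgeR). MCM9 was measured at 16.1, 16.9 and 16.0 CPM in controls and at 16.4, 19.7 and 18.9 CPM after INO80 siRNA, a log2 fold change of 0.17 (SE 0.1, 95% interval -0.06 to 0.40, adjusted p = 0.456, edgeR). MCM9 was higher in 3 of 3 pairs but the groups overlapped, and it was not called with the block (adjusted p = 0.136, edgeR). MCM10, an activation factor, was measured at 28.4, 38.1 and 33.4 CPM in controls and at 26.4, 32.9 and 30.5 CPM after INO80 siRNA. Its log2 fold change was -0.16 (SE 0.123, 95% interval -0.44 to 0.13, adjusted p = 0.593, edgeR), with overlapping groups and a lower value in 3 of 3 pairs. MCM10 had an adjusted p of 0.0694 with the block in edgeR, and of 0.0377 when both libraries numbered 1 were also left out. MCMBP, which binds MCM proteins other than MCM2, was measured at 155, 167 and 170 CPM in controls and at 168, 175 and 185 CPM after INO80 siRNA. The log2 fold change of MCMBP was 0.10 (SE 0.0628, 95% interval -0.04 to 0.25, adjusted p = 0.471, edgeR), and with the block the gene was called higher at an adjusted p of 0.0421.

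Levels can be compared between genes only per length, here as FPKM, the read count over exonic length and library total. In controls MCM7 stood first at 95.5 ± 5.34 FPKM (SD, n = 3), above 97.5% of the genes tested when averaged over all libraries. MCM3 followed at 55.1 ± 5.04, MCM2 at 51.2 ± 8.25, MCM4 at 45.9 ± 4.04 and MCM6 at 43.3 ± 3.95 FPKM. Among these 4, each overlapped its neighbour in the order. MCMBP at 27.5 ± 1.81 and MCM5 at 26.9 ± 2.17 FPKM also overlapped, followed by MCM8 at 18.7 ± 1.59, MCM10 at 6.09 ± 0.977 and MCM9 at 1.3 ± 0.0513 FPKM. The ring genes therefore stood above MCM8, MCM9 and MCM10 in level, and MCM9 was the lowest of the 10. The deposited length of MCM9 was 12496 bases and that of MCM5 7338 bases, against 4899 for MCM2, and these lengths enter the FPKM directly.

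Within the ring, the order by FPKM was the same in all 3 controls, MCM7, MCM3, MCM2, MCM4, MCM6 and MCM5. After INO80 siRNA, MCM2 moved from place 3 to place 6, 5 and 5 in the 3 libraries. MCM2 was measured at 41.83, 57.34 and 54.45 FPKM in controls and at 18.92, 26.31 and 25.45 FPKM after INO80 siRNA. It came down to the level of MCM5, which was 23.8 ± 1.6 FPKM after INO80 siRNA (SD, n = 3). MCM2 made up 14.6%, 16.8% and 16.7% of the summed FPKM of the 6 ring genes in controls and 7.7%, 8.89% and 9.03% after INO80 siRNA. Against the median of MCM3 to MCM7 in the same library, MCM2 stood at 1.01, 1.17 and 1.15 in controls and at 0.517, 0.567 and 0.595 after INO80 siRNA. This ratio needs no scaling between libraries, and its groups did not overlap. MCM2 was chosen by its lower level in these same libraries, so this separation is a description and not a test. The summed FPKM of MCM3 to MCM7 was 243.9, 283.6 and 272.6 in controls and 226.9, 269.7 and 256.5 after INO80 siRNA, with means of 267 ± 20.5 and 251 ± 21.9 (SD, n = 3). The groups overlapped, and the sum was lower in 3 of 3 same-numbered pairs.

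**Figure D3:**
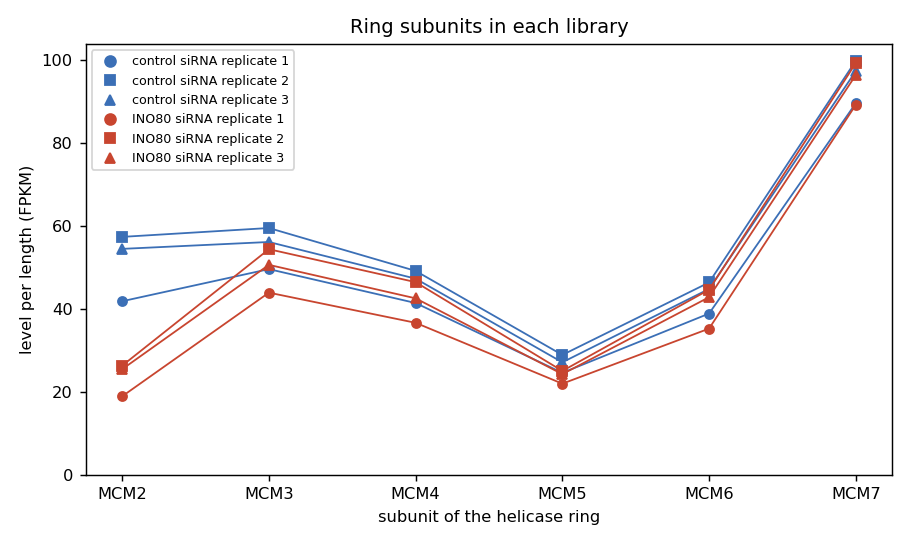
Lines join the levels in FPKM of the 6 helicase ring genes within each library, blue for control siRNA and red for INO80 siRNA, with shapes for replicate numbers. The 2 colours separate at MCM2, between 41.83 and 57.34 FPKM in controls and between 18.92 and 26.31 FPKM after INO80 siRNA, and run close together at MCM7.

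The members also varied between replicate numbers. The libraries numbered 1 held the lowest value of MCM2 to MCM8, MCM10 and MCMBP in their control group, and the lowest value of all 10 genes in the INO80 siRNA group. MCM2 deviated from its group mean by -0.25, 0.16 and 0.09 on the log2 scale in control libraries 1, 2 and 3, and by -0.26, 0.15 and 0.10 in the INO80 siRNA libraries. MCM10 deviated by -0.22, 0.20 and 0.01 in controls and by -0.17, 0.14 and 0.03 after INO80 siRNA. MCM3 deviated by -0.12, 0.10 and 0.02 in controls and by -0.13, 0.12 and 0.01 after INO80 siRNA. Smaller deviations were seen in controls for MCM7, at -0.06, 0.05 and 0.01, and for MCM9, at -0.02, 0.05 and -0.03. At number 1 the deviations of MCM2 and the other members were of one sign. The difference of MCM2 between the siRNA groups was far from that of the other members. The libraries numbered 1 stood apart across genes, and the share of all genes lowest in them was not computed. The shared sign is therefore not shown to be a trait of the family.

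**Figure D4:**
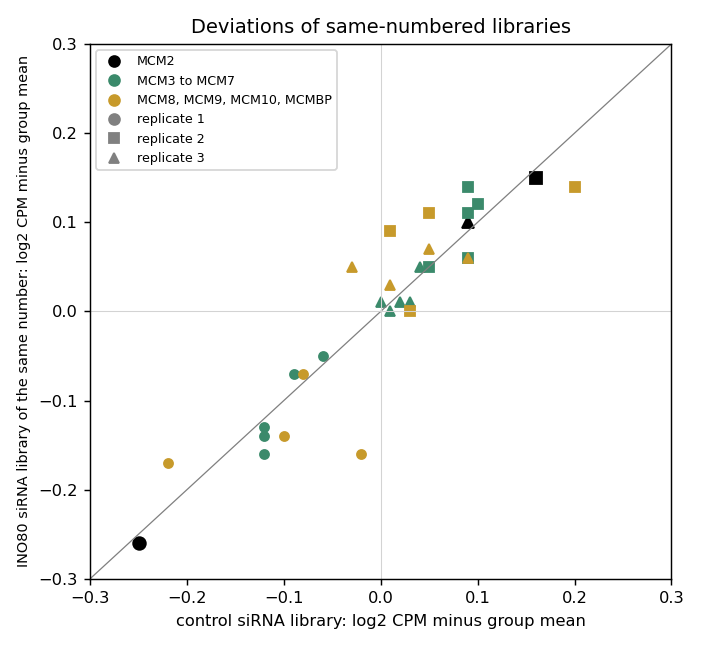
Each point is 1 MCM family gene at 1 replicate number, with the log2 deviation from the group mean of the control library on the x axis and of the INO80 siRNA library of the same number on the y axis, and a grey line of equal values. Points of replicate 1 (circles) lie at lower left, with MCM2 lowest at -0.25 and -0.26, and those of replicate 2 (squares) at upper right or on the zero line.

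Over all 6 libraries, the genes whose centred log2 CPM profile was nearest to that of MCM2 were not members. Among 9736 genes with a mean of at least 10 CPM, the smallest root mean square distances were those of GPHN (0.0839), RASSF3 (0.147), PLA2G15 (0.17) and HLA-DMB (0.176). GPHN, which encodes gephyrin, was measured at 13.1, 15.7 and 16.1 CPM in controls and at 6.47, 7.62 and 7.47 CPM after INO80 siRNA. PLA2G15 encodes a lysosomal phospholipase and HLA-DMB a protein of peptide loading on class II molecules. The fitted log2 fold changes of these 4 genes ran from -1.06 to -0.88. The nearest member, MCM5, ranked 909, followed by MCM10 at 1006, MCM3 at 1010, MCM4 at 1107 and MCM6 at 1529. MCM7 and MCM8 ranked 3163 and 3169, MCMBP 6042 and MCM9 7335. The measure rests on 6 libraries and on the same contrast that chose MCM2, and it says nothing of shared control.

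In the coordinates of the deposited table, which are those of GRCh37, MCM2 (ENSG00000073111) spans chr3:127317066-127341276 on the plus strand. TPRA1, on the other strand, shares 29 bases with MCM2 at their starts. TPRA1 was measured at 66.7, 78.2 and 70.0 CPM in controls and at 83.7, 84.8 and 73.5 CPM after INO80 siRNA, so its groups overlapped. Its log2 fold change was 0.17 (SE 0.0831, adjusted p = 0.361, edgeR), and 0.0137 was the adjusted p with the block, where it was called higher. The neighbour that starts 28 bases from MCM2 was therefore not lower in any pair. PRKDC, a kinase of DNA end joining, starts 2 bases from MCM4 on the other strand and had a log2 fold change of -0.23 (adjusted p = 0.382 in edgeR, and 2.07e-05 with the block). MCM7 (ENSG00000166508) spans chr7:99690351-99699563 on the minus strand. It shares 392 bases with AP4M1 on the other strand and holds MIR25, MIR93 and MIR106B on its own strand. AP4M1 had a log2 fold change of -0.17 (adjusted p = 0.489 in edgeR, and 0.235 with the block). MIR25 had 0.881 to 1.71 CPM in controls and 1.77 to 2.54 CPM after INO80 siRNA (log2 fold change 0.73, adjusted p = 0.263 in edgeR, and 0.0394 with the block), and MIR93 and MIR106B had at most 6 counts in a library. Reads of these precursors and of the MCM7 transcript around them cannot be told apart in such counts.

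MCM9 (ENSG00000111877) spans chr6:119134605-119256327 on the minus strand and shares 14949 bases with ASF1A, a histone chaperone gene on the other strand. ASF1A had 33.0 ± 3.17 CPM in controls and 28.5 ± 4.3 CPM after INO80 siRNA (SD, n = 3), a log2 fold change of -0.21 (adjusted p = 0.447 in edgeR, and 0.0145 with the block). The differences of MCM9 and ASF1A had opposite signs. Whether the counting used strand is not given in the sources used here, so the reads of overlapping genes on opposite strands are uncertain. TRMT6, which starts 116 bases from MCM8, and SEC23IP, which starts 155 bases from MCMBP, were not called on either fit, with log2 fold changes of 0.11 (adjusted p = 0.568 in edgeR) and 0.07 (adjusted p = 0.618). RP11-351A11.1 at the MCM9 start had at most 3 counts in a library, and a Y_RNA copy inside MCM8 had at most 1. RP5-967N21.7, also inside MCM8, had 0 counts in all 6 libraries.

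The partners of the helicase were followed in a list of 43 genes, all of them tested. edgeR called 1 of the 43 lower and 0 higher, beside 1.49% and 0.261% of all genes tested. At an unadjusted p under 0.05, 5 were lower and 5 higher, beside 9.2% and 7.18% of all genes tested. DESeq2 called 2 lower and 0 higher, beside 3.87% and 1.06% of the genes to which it gave an adjusted p. With the block 8 were called lower and 7 higher, shares to be read beside the 13.4% and 11.4% of all genes tested. The median log2 fold change was -0.02, with 24 genes below 0 and 19 above, beside 0.007 for all genes tested.

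The gene called lower was POLE4, a small subunit of DNA polymerase epsilon with a histone fold. POLE4 was measured at 79.2, 86.6 and 82.4 CPM in controls and at 60.1, 67.2 and 63.5 CPM after INO80 siRNA, and the groups did not overlap. The fitted log2 fold change of POLE4 was -0.38 (SE 0.0664, adjusted p = 0.0372, edgeR), and this call was lost when any 1 of the 6 libraries was left out. POLE4 was also called with the block at an adjusted p of 5.86e-07, and by DESeq2. ASF1B, a chaperone that shares an H3 and H4 pair with the MCM2 tail, was measured at 73.2, 97.7 and 84.1 CPM in controls and at 48.5, 68.4 and 58.7 CPM after INO80 siRNA. The ASF1B groups did not overlap. Its log2 fold change of -0.54 (SE 0.138, adjusted p = 0.102, edgeR) was the lowest of the list, and it was called with the block at an adjusted p of 1.97e-09 and by DESeq2.

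POLE2, another subunit of polymerase epsilon, had 20.5 ± 0.987 CPM in controls and 16.5 ± 0.506 CPM after INO80 siRNA (SD, n = 3), a log2 fold change of -0.31 (adjusted p = 0.116 in edgeR, and 0.00366 with the block). WDHD1, which links the helicase to the primase polymerase, had 61.7 ± 3.24 and 50.5 ± 6.61 CPM, a log2 fold change of -0.29 (adjusted p = 0.191 in edgeR, and 0.000417 with the block). These belong to the 12 fork genes, of which 1 was called lower by edgeR and 4 with the block, beside 1.49% and 13.4% of all genes tested. At an unadjusted p under 0.05, 3 of the 12 were lower and 0 higher, beside 9.2% and 7.18% of all genes tested. DESeq2 called 1 lower, POLE4, and 0 higher, beside 3.87% and 1.06% of the genes to which it gave an adjusted p. The median log2 fold change of the 12 was -0.10, with 10 below 0 and 2 above.

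The 10 genes listed for the loading of the ring, called licensing genes below, had a median log2 fold change of 0.03. Of these, 4 were below 0 and 6 above, and none was called by edgeR with the treatment alone. CDC6, a loader, had 105 ± 9.03 CPM in controls and 101 ± 9.3 CPM after INO80 siRNA, and CDT1, its partner, had 60.4 ± 8.85 and 61.9 ± 2.7 CPM (SD, n = 3). Their log2 fold changes were -0.06 (adjusted p = 0.794, edgeR) and 0.03 (adjusted p = 0.912). GMNN, the inhibitor of CDT1, had a log2 fold change of 0.06 (adjusted p = 0.799, edgeR), and ORC1, the cell cycle regulated subunit of the origin recognition complex, one of -0.11 (adjusted p = 0.751). CDC45, which joins the ring in the active helicase, had 42.1 ± 2.44 and 40.2 ± 2.47 CPM (SD, n = 3), a log2 fold change of -0.07 (adjusted p = 0.725, edgeR). The 4 licensing genes called with the block, 1 lower and 3 higher, stand beside 13.4% and 11.4% of all genes tested. All 4 were named after their values were seen and are subunits or partners of the origin recognition complex. They were ORC3, lower at a log2 fold change of -0.21 (adjusted p = 0.00227, edgeR with the block), and ORC2 at 0.19 (adjusted p = 0.00629), ORC5 at 0.23 (adjusted p = 0.00905) and LRWD1 at 0.24 (adjusted p = 0.0324), which were higher. Of the 10 licensing genes, edgeR with the treatment alone called 0, with 1 lower and 3 higher at an unadjusted p under 0.05 and 0 called by DESeq2. Of the 13 activation genes, edgeR called 0 and the block 1 lower and 1 higher, with 0 lower and 1 higher at an unadjusted p under 0.05 and 0 called by DESeq2. The 3 unloading genes gave 0 calls by edgeR and DESeq2, 1 higher at an unadjusted p under 0.05 and 1 higher with the block. The 5 histone chaperone genes gave 0 calls by edgeR, 1 lower at an unadjusted p under 0.05 and by DESeq2, and 2 lower and 2 higher with the block. Such small counts stand beside 1.49% lower and 0.261% higher of all genes tested by edgeR, and 9.2% and 7.18% at the unadjusted limit. For DESeq2 the shares were 3.87% and 1.06%, and for the block 13.4% and 11.4%.

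Transcripts that follow proliferation were looked at beside the family. PCNA, the sliding clamp of the fork, was measured at 258, 310 and 288 CPM in controls and at 249, 317 and 297 CPM after INO80 siRNA. MKI67, the gene of the Ki-67 antigen, had 468 ± 35.2 CPM in controls and 469 ± 32.9 CPM after INO80 siRNA (SD, n = 3). Both had overlapping groups, with log2 fold changes of 0.01 (95% interval -0.22 to 0.25, adjusted p = 0.969, edgeR) and 0.00 (adjusted p = 0.991). Of the 18 cell cycle genes listed, all tested, edgeR called 0, beside 1.49% lower and 0.261% higher of all genes tested. At an unadjusted p under 0.05, 0 were lower and 2 higher, beside 9.2% and 7.18% of all genes tested. DESeq2 called 0 lower and 1 higher, CCNE2, beside 3.87% and 1.06% of the genes to which it gave an adjusted p. The block called 3 lower and 6 higher, beside 13.4% and 11.4% of all genes tested. The 3 cell cycle genes with the largest fitted differences, named after their values were seen, were called with the block. CCNE2, cyclin E2, had a log2 fold change of 0.41 (adjusted p = 0.0574 in edgeR, and 6.83e-05 with the block). CCND1, cyclin D1, had one of -0.31 (adjusted p = 0.745 in edgeR, and 7.93e-07 with the block), and CDKN1A, an inhibitor of cyclin-dependent kinases, one of 0.21 (adjusted p = 0.303 in edgeR, and 0.0031 with the block). TYMS, thymidylate synthase, had a log2 fold change of -0.18 (adjusted p = 0.341 in edgeR, and 0.000567 with the block). The block called 1 lower and 1 higher of the 6 S phase genes, 1 lower and 4 higher of the 9 G2/M genes, and 1 lower and 1 higher of the 3 G1 genes. Of the S phase genes 4 were below 0, with a median log2 fold change of -0.07. Among the G2/M genes 8 were above 0, with a median of 0.09, beside 0.007 for all genes tested. The median of all 18 was 0.04.

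**Figure D5:**
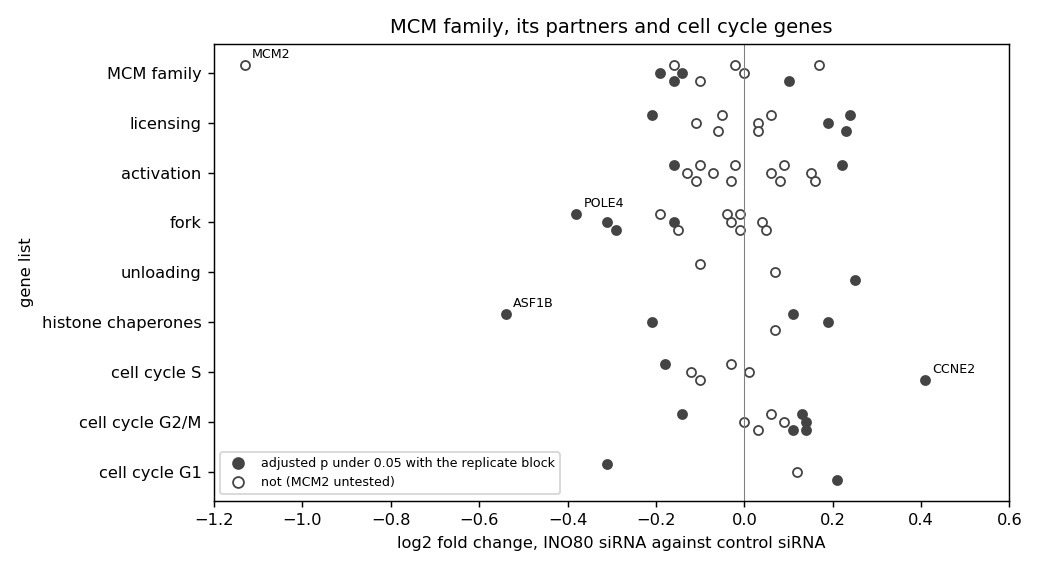
Each circle is the fitted log2 fold change, INO80 siRNA against control siRNA, of 1 gene, in rows for the MCM family, its partners by role and cell cycle genes, filled where the adjusted p with the replicate block was under 0.05 (MCM2 was not tested). MCM2 stands alone at -1.13, and the next lowest genes shown are ASF1B at -0.54 and POLE4 at -0.38.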

How the data were processed

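RNA-seq of 6 HK-2 libraries, 3 with control siRNA and 3 with INO80 siRNA, grouped by their labels, was analysed. The authors deposited raw read counts, FPKM, exonic lengths and coordinates of 57905 genes in 1 table. The deposited FPKM equal the count divided by exonic length and library total in all 347430 values. The submitters' processing notes name HISAT2 2.0.1, HTSeq and hg19, while the methods of the paper name ELAND and hg38. The table's coordinates match hg19 (GRCh37), and the aligner is not settled here. The library kit was directional.

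Counts were fitted in edgeR 4.0.16 (R 4.3.3) with filterByExpr, TMM and treatment alone, by the quasi-likelihood test with Benjamini-Hochberg adjustment over 15343 genes. CPM use TMM factors. Exact permutation tests were two-sided. Same-numbered libraries correlated in their deviations from group means across genes (0.581, 0.365 and 0.360, against -0.397 to 0.152 for other pairs), so the numbers were taken as pairs from the data, not from the labels, and a fit with the replicate block is given where it changes a call. Alternatives were DESeq2 1.42.0, other filters and scalings, a limit on fold change and leaving out libraries. The fits were also run on simulated counts, and the outcome is not reported here.

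The members and gene lists were chosen with earlier results of these data known. Named genes were all members, genes overlapping or starting within 1 kb of a member, the 4 partner genes with the largest change among those called, CDC6, CDT1, GMNN, CDC45, ORC1, PCNA, MKI67, INO80 and the 5 profiles nearest to MCM2, of which 1 is not reported here. ORC2, ORC3, ORC5, LRWD1, CCNE2, CCND1, CDKN1A and TYMS were named after their values were seen. Promoter windows came from RefSeq.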

Additional observations from a re-analysis of the deposited data

How the results depend on the processing

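The log2 fold change of MCM2 ran from -1.24 to -1.01 when 1 library was left out, and that of INO80 from -1.95 to -1.83, where its adjusted p in edgeR stayed between 0.000576 and 0.00241. The median of MCM3 to MCM7 ran from -0.21 to -0.08. With the replicate block, members other than MCM2 called lower numbered 3 and those called higher 1, against 0 and 0, and with both libraries numbered 1 left out from the blocked fit, an alternative chosen after seeing the data, 4 and 1. Partner genes called lower numbered 8 on both blocked fits and those called higher 7 on both, against 1 and 0. The block changed no other call of a member. Partner genes called lower numbered 2 with DESeq2, 2 without a filter on low counts, 2 without the libraries numbered 1, 0 with total count scaling, 0 with a log2 fold change of at least 1 also required, and 0 to 0 when 1 library was left out. The signs of the smallest differences were not stable. MCM7 ran from -0.05 to 0.01 and MCM8 from -0.05 to 0.07 when 1 library was left out, and MCM8 was 0.01 without a filter, with total count scaling, without the libraries numbered 1 and with the block without them. The cause was not tested. Adjusted p over the full fits ran from 0.000365 to 0.329 for MCM5, from 0.00139 to 0.504 for MCM3, from 0.00228 to 0.567 for MCM4 and from 0.0421 to 0.661 for MCMBP. The differences of MCM6, MCM7, MCM8, MCM9 and MCM10 did not pass the threshold on any of these full fits. RNA levels say nothing of the amount of MCM protein.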
